A study of Mus musculus with 4 samples.

Results

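The sites described here are 1293 restriction sites of the mouse genome, read at the sequence CCGG, that scored below 50 in both Tet1 knockout libraries and 50 or above in both wild type libraries of a hydroxymethylation assay. They were chosen by that rule among the 9442 autosomal sites scored in all 4 libraries, of which they make up 13.7%, and the whole deposited list holds 9738 sites. The cells were LSK cells, the bone marrow fraction that lacks lineage markers and carries Sca-1 and c-Kit, from mice aged 6 months. The groups were 2 wild type mice and 2 Tet1 knockout mice with 1 library each. The genotype labels give no allele, Cre driver or strain, the titles number the mice within a genotype, and no treatment is named for either group. LSK identity was not checked, because the assay measures DNA and gives no level of any marker gene. With 2 mice per genotype, every comparison between genotypes rests on 2 values against 2.

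TET1 is a dioxygenase that oxidises 5-methylcytosine in DNA to 5-hydroxymethylcytosine (5hmC) and further to forms that can be removed by base excision repair. TET2 and TET3 carry out the same reaction, so loss of TET1 leaves other sources of 5hmC. LSK cells hold the blood stem cells and early progenitors from which lymphoid and myeloid cells arise. HpaII and MspI both recognise CCGG. Methylation of the inner cytosine blocks HpaII and not MspI, and in assays of the HELP-GT type a glucosyltransferase adds glucose to 5hmC, which protects the site from MspI as well.

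The deposited score runs from 0 to 100, by a formula not given in the sources used here. Those sources also leave unstated whether a low score means more or less 5hmC, so the sites are described by score alone and not as sites that gained or lost 5hmC. Depth per site is unknown, so no single score carries an error of its own. No genome or annotation of the mm9 build was used, so the sites are named by chromosome and position as deposited (mm9), and genes, exons, promoters and surrounding sequence were not analysed here.

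The list of sites fixes much of what can be said about them. Every 1 of the 9738 listed sites had both libraries of at least 1 genotype above 0 and below 50, and 0 sites broke that rule, which was found from the values. A listed site with both wild type scores at 50 or above must then have both knockout scores above 0 and below 50. All 1293 scored autosomal sites with both wild type scores at 50 or above were in fact members, so the members are the complete set of listed autosomal sites at which neither wild type library scored below 50. The low knockout scores of the members therefore follow from how the list was made. The scores below are a description of the members, and the rule that chose them used the same values.

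Over the members, the mean score was 61.2 in wild type replicate 1 and 61.8 in wild type replicate 2, against 39.7 in knockout replicate 1 and 36.8 in knockout replicate 2. The genotype means were 61.5 ± 0.411 in wild type mice and 38.2 ± 2.04 in knockout mice (SD, n = 2 libraries of each), and the knockout minus wild type difference was -23.3 score units. Most members were thus moderate departures from 50 on either side, not sites at the ends of the scale. Wild type replicate 1 scored from 50.01 to 100 with a median of 59.2 and quartiles of 54.3 and 65.5. Wild type replicate 2 scored from 50.01 to 100 with a median of 59.4 and quartiles of 54.4 and 66.4. Knockout replicate 1 scored from 5.15 to 49.99 with a median of 41.5 and quartiles of 35.2 and 46.02. Knockout replicate 2 reached lower, from 3.25 to 49.98, with a median of 38.8 and quartiles of 31.4 and 45.01. It was below knockout replicate 1 at 761 of the 1293 sites (58.9%), whereas wild type replicate 2 was above wild type replicate 1 at 647 (50.04%). Knockout replicate 2 also had the widest spread over all 9442 autosomal sites, with an SD over sites of 18.2. That SD was 14.1 and 14.9 in wild type replicates 1 and 2 and 14.5 in knockout replicate 1. At the 2190 sites below 50 in the wild type alone, knockout replicate 2 was the higher knockout library (mean 63.6 beside 60.6). Its wide reach was thus not particular to the members.

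**Figure D1:**
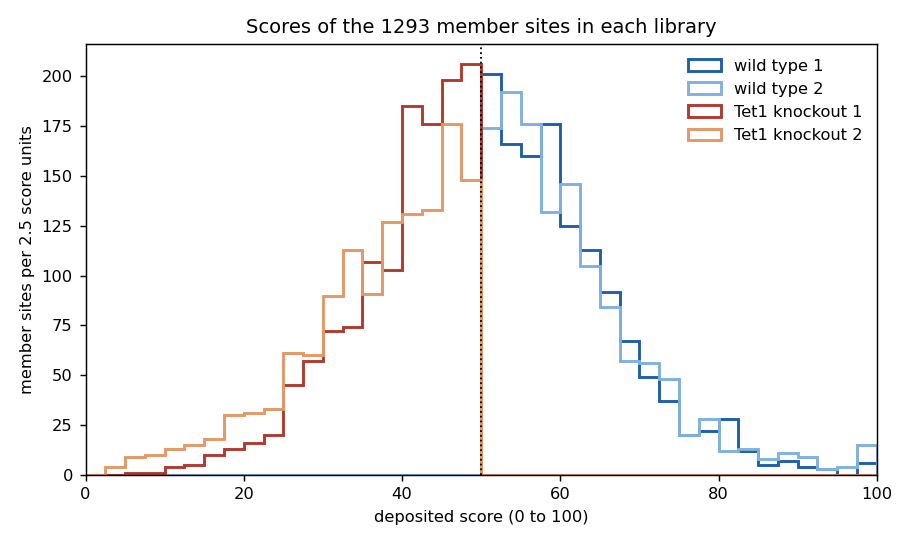
Histogram of the deposited score (x axis, 0 to 100) over the 1293 member sites, with 1 outline per library and the number of sites per 2.5 score units on the y axis. The rule parts the outlines at 50 (dotted line); the wild type medians are 59.2 and 59.4 and the knockout medians 41.5 and 38.8, and the knockout replicate 2 outline extends furthest to the left.

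The ends of the scale were rare. A score of exactly 100 occurred at 19 members (1.47%), at 6 in wild type replicate 1 and 14 in wild type replicate 2, with 1 site at 100 in both. A score of exactly 0 occurred at 0 members in either knockout library, whereas 132 other autosomal sites scored 0 in knockout replicate 2 and 38 in knockout replicate 1. The listing rule accounts for that absence, since a knockout score of 0 can be listed only where both wild type scores lie below 50. Both knockout scores were below 25 at 12 members (0.928%) and below 10 at 0. Both wild type scores were at least 75 at 34 members (2.63%) and at least 90 at 3.

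The space between the genotypes differed widely among the members. Separation, the lower wild type score minus the higher knockout score, ran from 0.629 to 68.8 score units with a median of 11.9. It was at least 10 at 791 members (61.2%), at least 20 at 277 (21.4%), at least 30 at 71 (5.49%) and at least 40 at 22 (1.70%). At 159 members (12.3%) it was under 5. In 293 members (22.7%) a wild type score lay under 55 while a knockout score lay at 45 or above, and all 4 scores stood at least 10 units clear of the threshold at 87 members (6.73%).

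**Figure D2:**
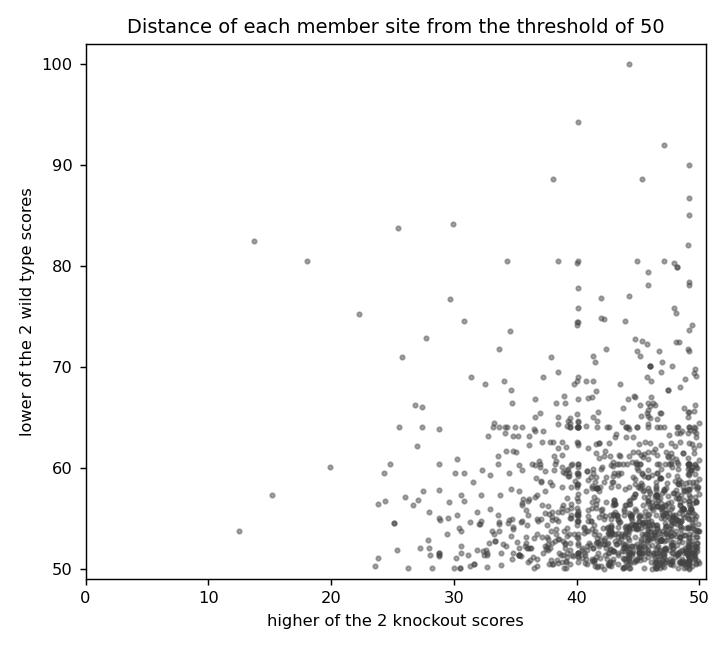
Each point is 1 of the 1293 member sites, with the higher of its 2 knockout scores on the x axis and the lower of its 2 wild type scores on the y axis (both deposited scores). Points crowd towards the lower right corner, where both values approach 50; 293 sites have a lower wild type score under 55 and a higher knockout score of 45 or above.

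Replicate mice of a genotype differed at the members by amounts of the same order as the separation. The median gap between the wild type libraries was 7.12 score units, and 119 members (9.20%) had a gap above 20. Between the knockout libraries the median gap was 7.56, with 140 members (10.8%) above 20. The wild type gap exceeded the separation at 400 members and the knockout gap at 449. The mean difference between genotypes exceeded both replicate gaps at 1158 members (89.6%). The rule places each wild type score of a member above each of its knockout scores, which favours such a share. It follows in large part from the choice of members, and nothing is read from it. Across the 1293 sites, the wild type libraries had a Pearson's r of 0.230 with each other and the knockout libraries one of 0.0934. These are correlations across sites of a truncated range within the same 4 libraries, given as a description. Distance above 50 in 1 wild type mouse, or below 50 in 1 knockout mouse, was only weakly shared with the other mouse. Taking all 9442 autosomal sites, which the listing rule also bounds, replicate r was 0.171 for wild type and 0.230 for knockout. At the 2190 sites below 50 in the wild type alone these values were 0.127 and 0.187. Low agreement of replicates across sites was therefore not particular to the members.

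The mirror set, 2190 autosomal sites below 50 in both wild type libraries and at 50 or above in both knockout libraries, had gaps close to these. Its median gap was 6.89 for wild type mice and 7.63 for knockout mice, and its mean difference was 23.2 score units in the opposite direction. At the 1744 sites below 50 in all 4 libraries, where no score had to reach 50, the median gaps were 8.98 and 8.89. These differences between sets were not tested, because each rule bounds the scores. Over all 9442 autosomal sites knockout scores were on average 3.26 score units higher. The members have the opposite direction by the rule that chose them, so nothing is read from this contrast.

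For single sites, limma (two-sided, with Benjamini-Hochberg adjustment over all 9633 scored sites) called 0 members at an adjusted p of 0.05, as it called 0% of all sites as lower in knockout cells. With 2 mice of each genotype, a count of 0 from this fit does not show that single sites were unchanged. At an unadjusted p under 0.05 it had 704 of the 1293 members lower, against 8.15% of all 9633 sites. The rule used this contrast, so the count is fixed in large part by the choice of members and nothing is read from it. By the rule all members had both knockout scores below both wild type scores, which held for 21.0% of all sites. The standard error of a member's difference had a median of 8.26 score units and ran from 6.53 to 16.3. With the mouse number as a block, 17 members were called lower by limma after adjustment, against 0.176% of all sites (17 of 9633, all of them members). On a log2(score + 1) scale 130 were, against 1.58% of all sites (152 of 9633). These counts too are fixed in large part by the choice of members, and nothing is read from them.

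The widest differences involved scores near both ends of the scale. Position 48899180 of chromosome 13 scored 82.5 and 100 in wild type replicates 1 and 2 and 13.7 and 3.25 in knockout replicates 1 and 2. Its mean difference of -82.8 ± 8.84 (SE, limma) and its separation of 68.8 both lead the members. Position 86865421 of chromosome 8 scored 80.4 and 100 in wild type mice and 18.1 and 9.20 in knockout mice. The knockout gaps of these sites, 10.5 and 8.88, were above the median knockout gap of the members. In each of them 1 wild type library stood at the top of the scale, where a gap between mice cannot be read fully.

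At position 57507948 of chromosome 9 both wild type libraries scored 100, while the knockout scored 44.2 and 11.5. At position 132039518 of chromosome 5 the scores were 100 and 94.3 in wild type mice and 40.1 and 16.5 in knockout mice. At position 102109529 of chromosome 15 they were 92.0 and 100, and 47.1 and 13.7. In these 3 sites the wild type mice were alike and high, and the size of the difference came with a knockout gap of 23.7 to 33.4 score units. The site at position 81392827 of chromosome 15 had the widest knockout gap of the leading 10, with scores of 86.7 and 100 in wild type mice and 49.1 and 9.43 in knockout mice.

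Of the leading 10, 3 held no score of exactly 100. At position 141649608 of chromosome 5 the wild type scored 83.7 and 90.3 and the knockout 25.4 and 18.7, with replicate gaps of 6.55 and 6.73. At position 78678752 of chromosome 4 the scores were 84.2 and 91.4 in wild type mice and 29.9 and 17.0 in knockout mice. At position 29376965 of chromosome 13 they were 92.0 and 75.2, and 22.3 and 19.4. The first of these combined the third largest separation, 58.3, with gaps below the median gap of all members. The remaining site of the leading 10, at position 41515448 of chromosome 4, scored 100 and 76.7 in wild type mice and 29.7 and 17.5 in knockout mice.

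Ranking by separation in place of the mean difference kept 8 of the 10 sites. It brought in position 28476290 of chromosome 2, with scores of 88.6 and 90.9 in wild type mice and 38.1 and 20.3 in knockout mice. It also brought in position 125815498 of chromosome 4, with 80.4 and 91.5 in wild type mice and 17.3 and 34.4 in knockout mice. Among the leading sites, this last one had its lower knockout score in replicate 1. The limma adjusted p was 0.118 at every site named from these rankings, and standard errors of the 10 largest differences ran from 6.99 to 13.5.

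**Figure D3:**
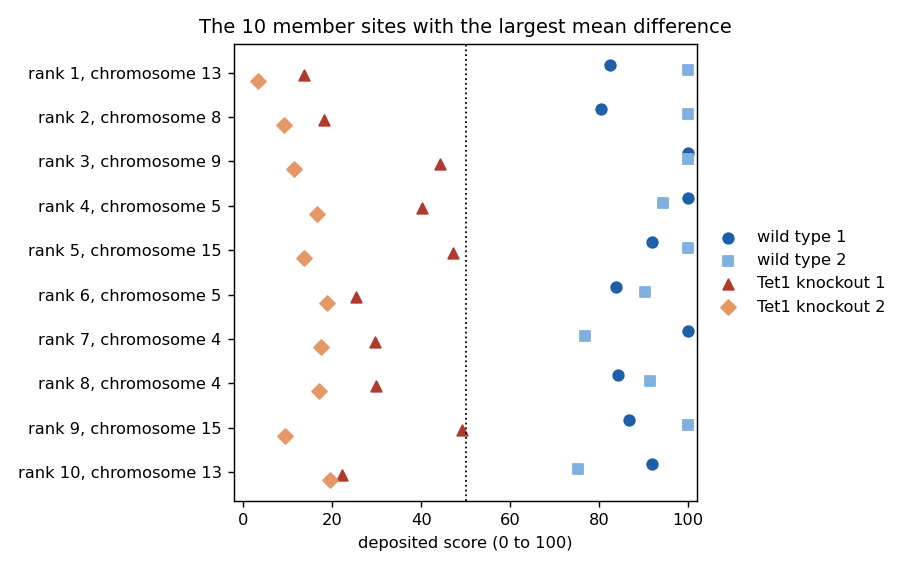
Deposited scores (x axis, 0 to 100) of the 10 member sites with the largest mean difference between genotypes, 1 row per site labelled by rank and chromosome, with 1 marker per library. All wild type markers lie at 75.2 or above and all knockout markers at 49.1 or below; knockout replicate 2 has the lower knockout score in each of the 10 rows.

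Some members were close to identical between replicate mice. Among members with a separation of at least 20, position 120557101 of chromosome 11 scored 80.4 and 80.3 in wild type mice and 47.96 and 47.3 in knockout mice. Position 117159149 of chromosome 5 scored 64.9 and 64.6 in wild type mice and 38.8 and 39.3 in knockout mice. Position 102167335 of chromosome 9 scored 57.3 and 57.98 in wild type mice and 33.4 and 33.7 in knockout mice. The other 3 sites of this kind, on chromosomes 1, 2 and 7, had gaps of at most 0.837 score units in either genotype and mean differences of -22.0 to -27.1. These sites were selected for their small gaps, so the gaps are a description and no measure of the error of the assay.

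Sites at the edge of the rule are given for both sides of 50. Just inside, position 98450115 of chromosome 11 scored 58.2 and 50.6 in wild type mice and 49.9 and 13.8 in knockout mice. Position 115851263 of the same chromosome scored 57.1 and 50.7 in wild type mice and 48.9 and 49.9 in knockout mice, a mean difference of -4.53. The 6 members nearest the threshold had separations of 0.629 to 0.892. Just outside, position 3711528 of chromosome 13 scored 56.2 and 49.99 in wild type mice and 22.9 and 44.2 in knockout mice. Position 122590124 of chromosome 7 scored 76.5 and 49.8 in wild type mice and 36.0 and 35.7 in knockout mice, a mean difference of -27.3. The 6 sites just outside had separations of 2.87 to 13.9. The sites inside were picked for the smallest separation and those outside for the wild type score nearest 50, so the separations of these lists cannot be compared.

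The number of sites changed abruptly at the threshold itself. Where both knockout scores were below 50 and wild type replicate 1 was at 50 or above, wild type replicate 2 scored from 48 to below 50 at 48 sites and from 50 to below 52 at 132 sites. With the wild type libraries exchanged, the same bins held 52 and 156 sites. Where wild type replicate 1 was below 50, the step ran the other way, with 145 sites from 48 to below 50 and 75 from 50 to below 52. With the libraries exchanged these were 173 and 101. In the first case the bins from 40 to below 50 held 48 to 53 sites and those from 50 to below 60 held 99 to 163. Bins on 1 side could differ as well: in the last case the count went on from 101 to 59 in the next bin. Close to the threshold, listed sites with wild type replicates on opposite sides of 50 were fewer than sites with both on the same side. The sources used here name no criterion behind this step, and its cause was not tested.

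**Figure D4:**
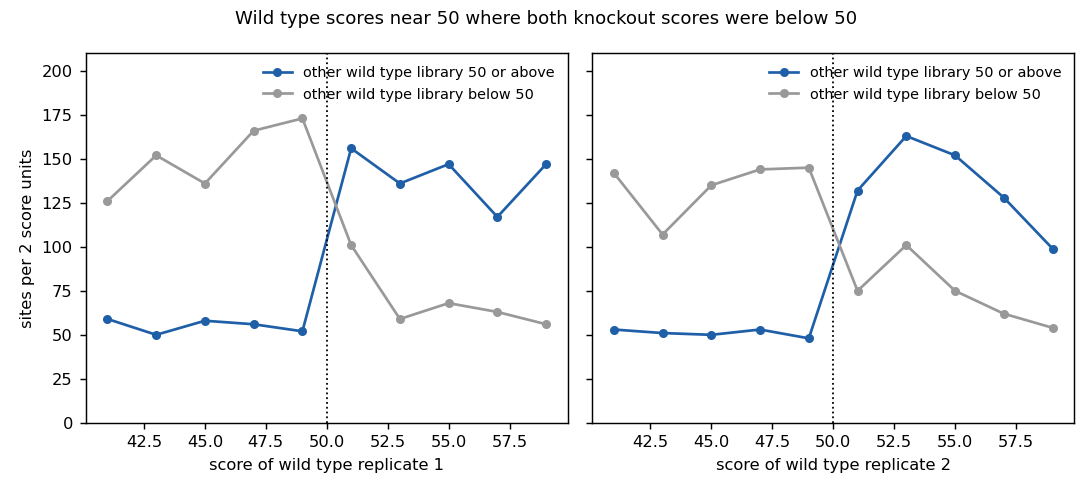
Number of autosomal sites (y axis, per 2 score units) by the score of wild type replicate 1 (left) or 2 (right) from 40 to 60, for sites with both knockout scores below 50. Blue points are sites at which the other wild type library scored 50 or above and grey points sites at which it scored below 50. Blue counts rise from 48 to 132 (replicate 2) and from 52 to 156 (replicate 1) across the threshold, and grey counts fall from 145 to 75 and from 173 to 101.

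In the knockout libraries the counts also differed across 50, less evenly than in the wild type. Where both wild type scores were below 50 and knockout replicate 2 was at 50 or above, knockout replicate 1 scored from 48 to below 50 at 128 sites and from 50 to below 52 at 279. With the knockout libraries exchanged the counts were 150 and 168, so the rise began below the threshold: the bins from 40 to below 48 held 85 to 110 sites and those from 52 to below 60 held 178 to 215. Where the other knockout library was below 50, the counts went from 169 to 185 in knockout replicate 1 and from 129 to 120 in knockout replicate 2, with no fall like that in the wild type.

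Some members share all 4 of their scores, to the 4 decimals deposited, with another autosomal site. This held for 81 members (6.26%), which carry 29 different sets of 4 scores, so the 1293 members hold 1241 distinct sets. Over all autosomal sites it held for 453 (4.80%), and for the mirror set at 6.58%. Whether such positions were measured separately cannot be told from the files, and what made their scores equal was not tested. Of the 29 sets, 23 lay on a single chromosome and 6 on several. On chromosome 4, 6 members from 41774764 to 42786966 all scored 59.2 and 55.9 in wild type mice and 41.2 and 48.7 in knockout mice. On chromosome 5, 6 members from 94402975 to 96068793 all scored 52.8 and 60.4, and 46.2 and 46.8. A further 5 members from 145336016 to 146476833 of chromosome 4 share 1 set, as do 4 from 7441610 to 10586975 of chromosome 7 and 4 from 21262643 to 21332242 of chromosome 17. Counted once per set, members made up 13.6% of all sets. None of the sites named in the rankings or at the threshold, and no member pair within 1000 bp, had such a score set (0 of each).

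Single scores recurred at many more sites. The score 64.0105 was given to 63 members in wild type replicate 1 and 60.3704 to 70 members in wild type replicate 2. In knockout replicate 1 the score 40.1246 occurred at 59 members, and in knockout replicate 2 the score 49.0308 occurred at 28. Counting scores that a library gave to at least 5 autosomal sites, 53.0% of member scores in wild type replicate 1 and 46.1% in wild type replicate 2 were recurring ones. Among the other sites that scored 50 or above in those libraries, which are listed with the other wild type score below 50, 59.3% and 55.3% were. In the knockout, recurring scores made up 74.9% and 51.9% of the members in replicates 1 and 2, beside 76.1% and 58.04% of the other sites below 50. Member scores were less often recurring ones in each of the 4 libraries, by 1.15 percentage points in knockout replicate 1 and by 6.14 to 9.19 in the others. These shares were not tested. How a recurring score relates to the number of reads at a site is unknown here.

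Position was not used by the rule. Members lay on all 19 autosomes, and their share of the scored sites ran from 9.48% on chromosome 10 (44 of 464 sites, 95% Wilson interval 7.14 to 12.5) to 16.9% on chromosome 8 (97 of 574, 14.1 to 20.2). Chromosome 9 followed with 16.6% (91 of 547, 13.8 to 19.99), and chromosome 18 was second lowest with 10.9% (28 of 258, 7.62 to 15.2). The interval of chromosome 10 lies below the share of 13.7% over all autosomes and those of chromosomes 8 and 9 lie above it, while the intervals of the other 16 contain it. These intervals cover counting error over sites only, treat neighbouring sites as independent, and are not adjusted for the 19 chromosomes read together. Without the sites that share all 4 scores with another site, the share was 16.1% on chromosome 8 (89 of 553, 13.3 to 19.4), an interval that contains the share of 13.5% over the remaining sites. Chromosome 9 was then highest at 16.8% (13.8 to 20.2) and chromosome 10 still lowest at 9.71% (7.32 to 12.8). Set against the mirror set the ranking was another one, with 0.394 members per mirror site on chromosome 14 and 0.783 on chromosome 12 as its ends, and 0.436 on chromosome 10 and 0.740 on chromosome 8.

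**Figure D5:**
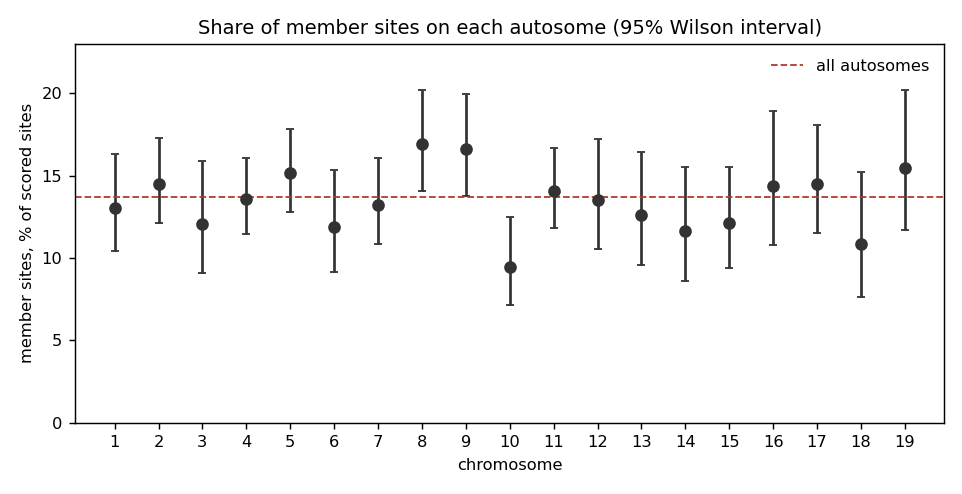
Percentage of scored sites that were members (y axis) on each of the 19 autosomes (x axis), with 95% Wilson intervals as bars and the share over all autosomes, 13.7%, as a dashed line. Chromosome 10 is lowest at 9.48% and chromosome 8 highest at 16.9%.

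The size of the difference at members was also read for each chromosome, within the bounds that the rule sets on the scores. The mean difference ran from -19.8 score units over the 39 members of chromosome 14 to -25.5 over the 53 members of chromosome 15. On chromosome 14 the wild type libraries averaged 62.1 and 56.3 and the knockout libraries 39.98 and 38.95. On chromosome 15 they averaged 63.0 and 62.7, and 38.5 and 36.2. Knockout replicate 2 was the lowest library on 18 of the 19 autosomes, chromosome 19 being the exception with 39.4 in replicate 1 and 39.96 in replicate 2.

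Position relative to other listed sites was compared between sets. The median distance to the nearest listed site was 22224 bp for members and 30184 bp for all autosomal sites. It was 30578 bp for the mirror set, 30940 bp for sites below 50 in the knockout and in 1 wild type library, and 32408 bp for sites below 50 in all 4 libraries. Without sites that share all 4 scores with another site it was 25337 bp for members and 31112 bp for all sites. A listed neighbour within 1000 bp was present for 203 members (15.7%), against 12.9% of all autosomal sites, and within 200 bp for 121 members (9.36%), against 7.85%. Sites below 50 in the knockout and in 1 wild type library had similar shares, 14.8% and 10.04%, so a close neighbour was not particular to the members. The densest 1 Mb windows, chosen after their values were seen, held up to 9 members. From position 129005561 to 129993787 of chromosome 5, 9 of the 23 listed sites of the window were members, 1 of them with scores shared by another site, and 4 belonged to the mirror set. From position 19705907 to 19956038 of chromosome 8, 6 of 10 listed sites were members and 2 belonged to the mirror set. The members there had separations of 1.55 to 12.8, but 3 of the 6 share all 4 scores with another site. From position 42026029 to 42937789 of chromosome 4, 8 of 37 listed sites were members and 6 of the 8 share their scores. In that window 16 sites belonged to the mirror set, more than were members. From position 123091016 to 123924640 of chromosome 8, 8 of 30 listed sites were members, 0 of them with shared scores, and 6 belonged to the mirror set. In the chromosome 8 window that starts at 19705907, the libraries averaged 56.1 and 59.6 in wild type mice and 47.9 and 44.6 in knockout mice. These means lie closer to 50 than those of all members. Of the 773 windows of 1 Mb with a member, 466 held 1 and 17 held at least 5.

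Neighbouring CCGG sites give separately scored values within a short stretch of DNA. Of the 1293 members, 50 (3.87%) had another member within 1000 bp, in 25 pairs, and no group of 3 or more occurred (0 such groups). Their mean pair differences ran from -34.8 to -10.9 score units. In 16 of the pairs the sites lay within 200 bp of each other. The pair at 106126447 and 106126527 of chromosome 12 had the largest mean difference of these 16, -29.0. Its first site scored 55.8 and 53.4 in wild type mice and 31.2 and 36.8 in knockout mice, and its second 61.8 and 60.4, and 36.3 and 11.2. The wild type values of the sites were similar, and the second knockout mouse parted them.

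The pair at 151288106 and 151288188 of chromosome 7 averaged 55.03 and 79.9 in wild type replicates 1 and 2 and 47.4 and 30.3 in knockout replicates 1 and 2. There the mice of a genotype differed more than at most members, in the same direction at both sites. The pair at 47587530 and 47587714 of chromosome 19 averaged 65.4 and 68.7 in wild type mice and 38.0 and 44.2 in knockout mice. The pair at 87201107 and 87201249 of chromosome 17 averaged 56.4 and 59.5, and 40.5 and 32.5. Both of these had replicate means closer to each other than to the other genotype. Over a longer distance, the members at 105863736 and 105863940 of chromosome 9 had the largest pair difference, -34.8, and another listed site at 105863137 scored 21.5 and 75.5 in wild type mice and 40.1 and 28.1 in knockout mice.

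Some members had a neighbour of the opposite pattern. Within 200 bp, 32 pairs joined a member to a site of the mirror set, below 50 in the wild type alone, against 16 pairs of members. Mirror sites outnumber members over the autosomes, 2190 against 1293, and no expected number of either kind of pair was worked out. The pair counts are therefore a description, and nothing is read from their difference. The gap in these opposite pairs ran from 49 to 197 bp. At position 106126375 of chromosome 12, 152 bp before the second site of the leading pair, a mirror site scored 42.5 and 32.4 in wild type mice and 55.7 and 68.7 in knockout mice. On chromosome 4, the member at 149606610 scored 73.7 and 63.2 in wild type mice and 34.8 and 31.8 in knockout mice. The mirror site 59 bp away at 149606551 scored 49.3 and 48.9 in wild type mice and 70.4 and 68.3 in knockout mice. On chromosome 8, the member at 125088855 scored 62.0 and 61.3 in wild type mice and 28.8 and 43.4 in knockout mice. The mirror site at 125089030 scored 22.9 and 23.1 in wild type mice and 59.3 and 51.2 in knockout mice. These examples were chosen after their values were seen, for the largest contrast between neighbours.

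Sites beside a member were compared with sites that had other neighbours. Of the 124 autosomal sites with another site within 200 bp that was a member, 32 (25.8%, 95% Wilson interval 18.9 to 34.2) were members. Of the 617 with a listed site but no member within 200 bp, 89 (14.4%, 11.9 to 17.4) were. The share of mirror sites was 25.0% and 24.0%, with members in the denominators. Among non-members alone it was 33.7% (31 of 92) beside a member and 28.0% (148 of 528) beside other listed sites. Within 1000 bp these shares among non-members were 27.5% and 29.0%, the other way round, and neither difference was tested. Within 1000 bp the member shares were 21.9% (17.0 to 27.7) and 15.4% (13.3 to 17.8), with intervals that overlapped, and within 5000 bp they were 21.3% (17.4 to 25.6) and 15.0% (13.3 to 16.8), with intervals that did not. Without the sites that share all 4 scores with another site, the shares within 200 bp were 26.02% (19.1 to 34.4) and 15.97% (13.1 to 19.3), and the intervals overlapped. Within 5000 bp they were then 22.7% (18.6 to 27.3) and 15.1% (13.4 to 16.99). Pairs contribute both of their sites to these counts, so the intervals treat linked sites as independent and are too narrow.

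With members left out by their scores, the remaining neighbours had the direction of the list. The 178 non-member sites with a member within 1000 bp averaged 41.1 and 42.9 in wild type mice and 47.2 and 45.9 in knockout mice, a knockout minus wild type difference of 4.58. The 838 non-member sites with a listed site but no member in that distance averaged 39.5 and 40.04 in wild type mice and 47.3 and 46.4 in knockout mice, a difference of 7.10. In both sets the knockout libraries lay above the wild type libraries. Leaving out members by their scores shifts both averages. With members kept, the difference was -0.875 over the 228 sites with a member within 1000 bp. It was 2.46 over the 991 sites with a listed site but no member in that distance. The sites are subject to the listing rule, and the values were not tested.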

How the data were processed

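Per the labels' protocols, DNA from LSK cells was cut with HpaII and MspI in separate reactions, tags beside the cut ends were released with EcoP15I, and these were amplified and sequenced. Per the submitters' processing notes the build was mm9. The authors deposited a score from 0 to 100 per site and library; aligner, tag counting and formula were not given in the sources used here. Depth is therefore unknown.

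The 4 files were joined on chromosome and position, and sites blank in any library or off the autosomes were left out of the members (100 autosomal sites had a blank). Of 71 listed positions inside the promoter windows of the GRCm38 table at hand, 1 lay on the first base of a CCGG, so that table was not used.

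Sites were fitted in R 4.3.3 by limma 3.58.1 on the untransformed scores of 9633 sites, with moderated variances that follow the mean. Other steps used Python 3.11.15, pandas 2.3.3 and statsmodels 0.14.6. Named sites were the 10 by mean difference, the 10 by separation, 6 each side of the threshold, 6 with the closest replicates, and close pairs. Alternatives were other scalings, thresholds of 45 and 55, a replicate block and leaving out each library; counting sites with identical scores once was added after seeing the data. The members and lists were chosen with earlier results of these data known.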

Additional observations from a re-analysis of the deposited data

Results flagged for a closer look

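Sites outside the autosomes and sites with a blank score were not among the members. On the X chromosome 38 of 189 scored sites (20.1%, 95% Wilson interval 15.01 to 26.4) met the same score rule. The autosomal share was 13.7% (13.02 to 14.4). The 38 sites averaged 66.0 and 70.5 in wild type replicates 1 and 2 and 40.2 and 35.9 in knockout replicates 1 and 2. The reverse pattern, below 50 in both wild type libraries and neither knockout library, held for 33 X sites. The 2 scored Y sites included 0 that met the rule.

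Of the 100 autosomal sites with a blank, 31 (31%) would meet the rule on their remaining scores. All 31 lacked a wild type score and 0 lacked a knockout score. The listing rule fixes this, since a site blank in a knockout library is listed only where both wild type scores lie below 50. Of the 31, 29 were blank in wild type replicate 2 and 5 in wild type replicate 1. Some were thus blank in both and met the rule on their knockout scores alone. A blank site needs fewer scores to meet the rule, so its share is not comparable with that of the members.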

How the results depend on the processing

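The number of members, 1293, was 1393 after median centring, 1459 after quantile normalization, 903 at a threshold of 45, 1274 without scores of exactly 0 or 100, and 1241 with sites of identical scores counted once (mean difference then -23.5), an alternative chosen after seeing the data. It was 664 at a threshold of 55 and 791 with a gap of at least 10 score units, as stricter criteria give. Leaving out 1 library gave 1293 to 2145 sites: 2145 without wild type replicate 1, 1995 without wild type replicate 2, and 1293 without either knockout library, since the listing rule then still holds both knockout scores below 50. The mean difference, -23.3, was -26.5 after median centring and -27.1 after quantile normalization. Both scalings remove the higher knockout level over all sites (3.25 score units by the medians). Without single libraries the mean difference ran from -24.7 to -21.8. The median centred and single-library values are means over the same 1293 members, not over the sites counted anew above. The median centred value is thus the main one shifted by a constant, and none of these values tests the choice of members. Members with another member close by numbered 50 within 1000 bp, 32 within 200 bp and 81 within 5000 bp. In limma, the mouse number as a replicate block called 20 sites higher, 17 lower and 17 members lower, where the fit without it called 0 of each. On the log2(score + 1) scale it called 248 higher, 152 lower and 130 members lower, and the cause was not tested. Every other alternative run, leaving out each library included (0 to 0), called 0. The labels do not say that mouse numbers pair mice, and across sites the wild type replicate difference had an r of -0.0210 with the knockout one. Unknown depth limits the reading of single scores.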
